A study of Mus with 4 samples.

Results

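Mast cells are tissue-resident immune cells that store proteases in granules packed with heparin and release them when activated. Mouse connective tissue mast cells hold a tryptase, several chymases and a carboxypeptidase, and the messenger RNAs of these enzymes are widely used as markers of the cell. In the heart, mast cells lie mainly in connective tissue and around vessels, where chymase is known for converting angiotensin I to angiotensin II. The genes described here are the 4 proteases *Tpsb2* (ENSMUSG00000033825), *Cpa3* (ENSMUSG00000001865), *Cma1* (ENSMUSG00000022225) and *Mcpt4* (ENSMUSG00000061068), out of 55487 gene IDs measured. They were chosen by their identity as mast cell proteases and from the value of *Tpsb2*, which was high in 1 library of miR-187-overexpressing mice alone (miR-187-2). The level of *Tpsb2* in that library is therefore a description and was not tested. All 4 genes had a mean of at least 1 FPKM (fragments per kilobase of transcript, scaled to the mapped fragments of the library), the limit used for testing, which 14325 genes passed.

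RNA-seq was done on material labelled as heart from newborn mice at postnatal day 0, with 2 libraries from wild-type mice (WT-1 and WT-2) and 2 from mice overexpressing miR-187 (miR-187-1 and miR-187-2). The miR-187-knockin line of the study has a C57BL/6J background. A *Tek* (*Tie2*) promoter and enhancer at *Rosa26* were used to drive the microRNA in endothelial cells. Whether mast cells also express the transgene was not examined here. The study's methods instead give the material sequenced as endothelial cells of the heart, from homozygous (KI/KI) and WT newborns. For mouse hearts these cells are isolated with CD31 beads, and how many mast cells such a sort keeps was not examined here. The labels name no sort and no zygosity, and which of these materials the libraries hold was not settled here. Nothing says whether a library came from 1 animal or a pool, and p-values measure only the spread between these libraries. Gene names are absent from the deposited table, so those of the 4 genes are the ones given with their IDs when they were chosen. For the same reason other mast cell genes, the level of miR-187 and markers by which the labelled tissue could be checked were not analysed here.

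The sums of FPKM were similar in the 4 libraries, between 750826 and 807359, but read depth is unknown because the values carry no counts. Low values were higher in the replicate 1 libraries, where the median over all IDs was 0.562 FPKM (WT-1) and 0.402 FPKM (miR-187-1), against 0.241 FPKM in WT-2 and 0.261 FPKM in miR-187-2. In miR-187-2, 38 of the tested genes exceeded every other library at least 5-fold. This count was 2 in WT-1, 13 in WT-2 and 2 in miR-187-1. At 2-fold or more the order was another, with 361 genes in WT-2, 191 in WT-1, 177 in miR-187-2 and 68 in miR-187-1. Group differences are given below with and without miR-187-2.

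The 4 genes lie at 3 places in the mouse genome (RefSeq annotation of GRCm38, the build the submitters name as mm10). *Cma1*, which encodes a chymase of the alpha family also called mouse mast cell protease 5, lies at chr14:55941451-55944675. *Mcpt4*, which encodes a chymase of the beta family with chymotrypsin-like activity, lies at chr14:56059744-56062310. A stretch of 115.068 kb separates them, and it holds 6 annotated genes, of which 4 are protein coding (*Cma2*, *Mcpt1*, *Mcpt2* and *Mcpt9*, all relatives). *Cma1* to *Gzmb*, the last granzyme gene of the cluster, spans 320.884 kb with 15 protein-coding serine protease genes. *Tpsb2*, a tryptase that works as a tetramer held together by heparin, lies at chr17:25366308-25368096 among other tryptase genes. Its neighbour *Tpsg1* begins 1.098 kb beyond it, and *Tpsab1*, annotated as a transcribed pseudogene in this assembly, ends 20.745 kb before it. *Cpa3*, the zinc carboxypeptidase that trims hydrophobic residues from the ends of peptides, lies at chr3:20215616-20242209, and *Cpb1*, a pancreatic carboxypeptidase, starts 7.269 kb further on. How reads of related genes were shared among these IDs is not given in the sources used here, so the value of each gene may include reads of a relative.

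**Figure D1:**
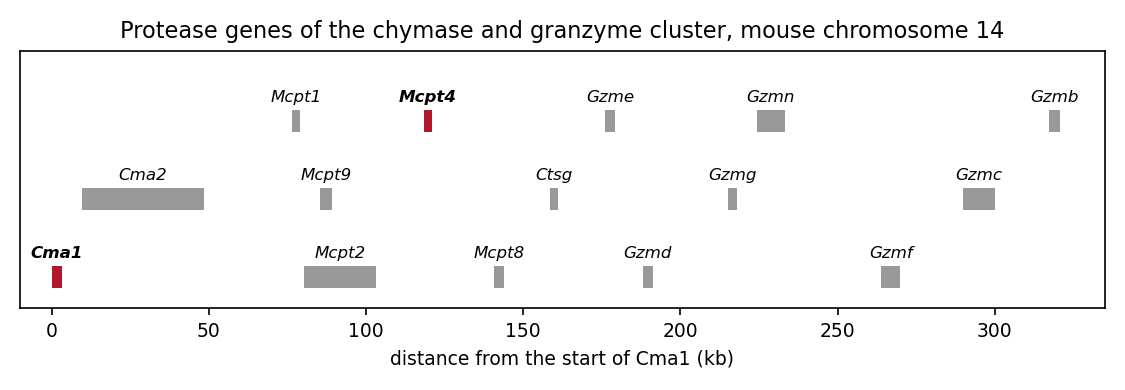
Protein-coding protease genes from *Cma1* to *Gzmb* on mouse chromosome 14, drawn to scale by distance in kb from the start of *Cma1*; rows only keep the names apart. *Cma1* and *Mcpt4* (red) sit 115.068 kb apart within the 15 genes shown.

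All 4 proteases had values above 0 in every library and were highest in miR-187-2. *Cma1* was the most abundant of them, with 36.3 FPKM in WT-1, 12.1 FPKM in WT-2, 29.2 FPKM in miR-187-1 and 295 FPKM in miR-187-2. The miR-187-1 library lay between the WT libraries, so the groups overlapped, and miR-187-2 was 8.12 times the highest of the others. Among the 14325 tested genes of each library, *Cma1* held place 1216 and place 3437 in WT-1 and WT-2 and place 1580 in miR-187-1, but place 225 in miR-187-2.

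*Tpsb2* had 9.63 FPKM in WT-1, 4.64 FPKM in WT-2, 19.2 FPKM in miR-187-1 and 195 FPKM in miR-187-2. It was the only member whose groups did not overlap, with miR-187 the higher, a pattern that 12.3% of all tested genes shared. The value of miR-187-2 was 10.2 times that of miR-187-1. In turn, miR-187-1 had 1.99 times the level of WT-1 and 4.13 times that of WT-2.

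*Cpa3* had 12.9 FPKM in WT-1, 5.86 FPKM in WT-2, 12.6 FPKM in miR-187-1 and 124 FPKM in miR-187-2. Here miR-187-1 and WT-1 were almost level, with a ratio of 0.971, and miR-187-2 was 9.61 times the highest of the others. *Mcpt4*, the least abundant member, had 6.88 FPKM in WT-1, 0.280 FPKM in WT-2, 2.74 FPKM in miR-187-1 and 53.6 FPKM in miR-187-2. The WT-2 value was close to the median of all IDs in that library, and the WT libraries differed 24.5-fold for this gene. The value in miR-187-2 was 7.79 times the highest of the others, again with overlapping groups.

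**Figure D2:**
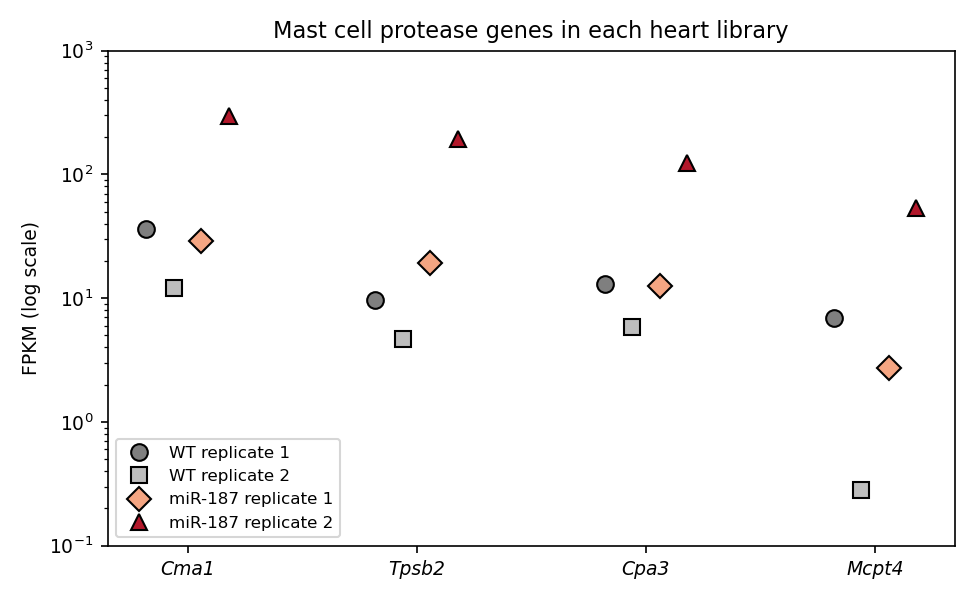
FPKM (log axis) of the 4 proteases, with 1 point for each of the 4 libraries and no averaging. Every gene is highest in miR-187-2 (red triangles, from 53.6 FPKM for *Mcpt4* to 295 FPKM for *Cma1*) and lowest in WT-2 (light squares).

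Summed over the 4 genes, the level was 65.8 FPKM in WT-1, 22.9 FPKM in WT-2, 63.7 FPKM in miR-187-1 and 668 FPKM in miR-187-2. These sums were 0.00815%, 0.00304%, 0.00812% and 0.0843% of all FPKM in the respective library. The sums in WT-1 and miR-187-1 were thus nearly equal, with a ratio of 0.968, while the WT libraries differed 2.88-fold from each other. In bulk RNA, more mast cells and more of each messenger RNA per cell cannot be told apart. This holds whether the material was heart tissue or cells sorted with CD31 beads.

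At the low end, WT-2 was the lowest library for 4 of 4 members, as it was for 22.9% of tested genes. Between the WT libraries, *Tpsb2* differed 2.07-fold, *Cpa3* 2.21-fold, *Cma1* 3.01-fold and *Mcpt4* 24.5-fold, with WT-1 higher each time. WT-1 was also the library with the highest median over all IDs, and the part of this in the members' values was not tested. The medians over tested genes alone were close, at 3.87 FPKM in WT-1 and 4.06 FPKM in WT-2.

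FPKM is a level per length of transcript, so the members can be compared with one another within a library. *Cma1* was the highest and *Mcpt4* the lowest of the 4 in each of the 4 libraries. *Cma1* made up 55.2% (WT-1), 52.8% (WT-2), 45.9% (miR-187-1) and 44.2% (miR-187-2) of the members' summed FPKM. The share of *Mcpt4* was the least even, at 10.5% in WT-1, 1.23% in WT-2, 4.30% in miR-187-1 and 8.02% in miR-187-2.

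*Cpa3* and *Cma1* kept the steadiest proportion among the pairs of members. Their proteins are known to depend on each other for storage in the granule, and whether this bears on the messenger RNA was not tested. The ratio of *Cpa3* to *Cma1* was 0.356 in WT-1, 0.485 in WT-2, 0.429 in miR-187-1 and 0.421 in miR-187-2. Its highest value was 1.36 times its lowest across the 4 libraries, although *Cma1* itself ranged 24.4-fold. The ratio of *Mcpt4* to *Cma1*, 2 chymases of the same cluster, was far less steady. It was 0.189 in WT-1, 0.0232 in WT-2, 0.0936 in miR-187-1 and 0.182 in miR-187-2, with the low WT-2 level of *Mcpt4* behind the smallest value.

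The tryptase was set against both in the same way. The ratio of *Tpsb2* to *Cpa3* was 0.744 in WT-1, 0.792 in WT-2, 1.52 in miR-187-1 and 1.57 in miR-187-2. *Cpa3* was thus the higher gene in both WT libraries and *Tpsb2* the higher in both miR-187 libraries, including the one whose summed protease level was close to that of WT-1. The means were 0.768 ± 0.0337 in WT and 1.55 ± 0.0324 in miR-187 (SD, n = 2 each), a log2 difference of 1.01. Against *Cma1*, the *Tpsb2* ratio was 0.265 in WT-1, 0.384 in WT-2, 0.655 in miR-187-1 and 0.662 in miR-187-2, a log2 difference of 1.05. Both differences were larger than the spread between replicates. An exact permutation test of 2 libraries against 2 cannot give a two-sided p below 0.333, and this pattern was noticed after the values were seen, so no test was made. Of the 6 pairs of members, these were the 2 whose ratio did not overlap between groups, beside 27.8% of all pairs of tested genes above 0 in every library, so this count is near the background and shows nothing particular to the proteases. Without miR-187-2, the library that led to the choice of *Tpsb2*, the log2 differences were 0.99 against *Cpa3* and 1.04 against *Cma1*, each from 1 miR-187 library.

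**Figure D3:**
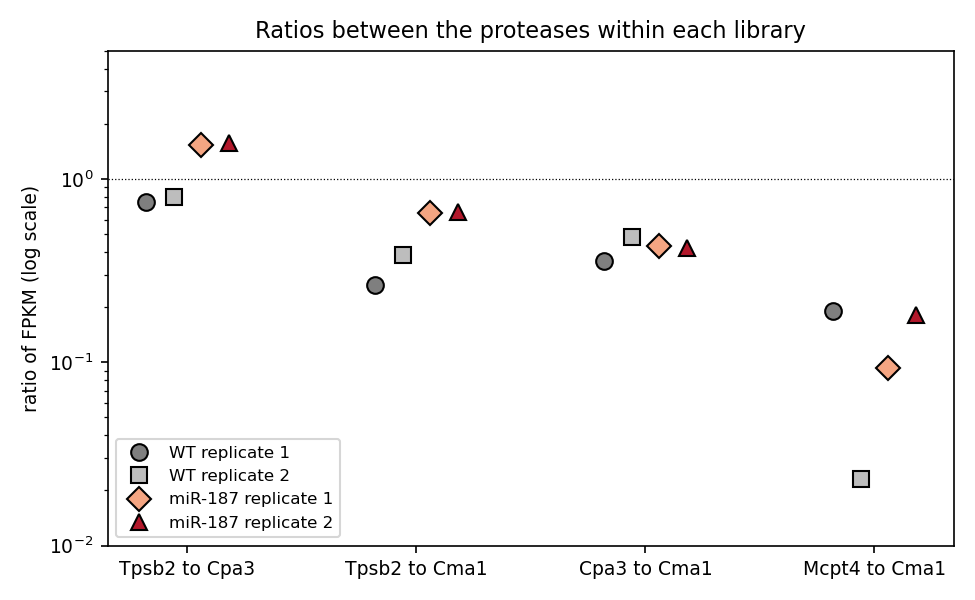
Ratio of FPKM between pairs of proteases within each library (log axis, 1 point per library; dotted line, equal levels). *Tpsb2* to *Cpa3* lies below 1 in both WT libraries (0.744 and 0.792) and above 1 in both miR-187 libraries (1.52 and 1.57), whereas *Cpa3* to *Cma1* stays between 0.356 and 0.485.

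To ask how raised miR-187 bears on these genes, the groups were compared with limma on log2(FPKM + 1) values over all tested genes, with Benjamini-Hochberg adjustment. The log2 difference (miR-187 minus WT) was 2.08 with a standard error of 0.64 for *Cpa3*, 2.10 with 0.68 for *Cma1* and 2.17 with 0.79 for *Mcpt4*. None of these 3 passed the threshold, with an adjusted p of 1.00 each (limma), although their unadjusted p-values were 0.00365, 0.00541 and 0.0122. They did pass with a minimum mean of 0.1 FPKM, and with replicate number added as a block, as described in the closing part. Of all tested genes, 1 passed in either direction, or 0.00698%, and 447 had an unadjusted p under 0.05. The log2 difference of *Tpsb2* was 3.02 with a standard error of 0.64, given without a test. Each member had a difference of at least 2 on this scale, as did 16 genes in all (0.112%), so the members were 4 of these 16. This count rests on the library that led to their choice and shows no more than that choice. Without miR-187-2, 3 genes had such a difference, of which 0 were members.

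The group difference depended on which library was left out. Without miR-187-2, it fell to 1.38 for *Tpsb2*, 0.47 for *Cpa3*, 0.45 for *Cma1* and 0.23 for *Mcpt4*. This reduced comparison is not independent of the choice of *Tpsb2*. That gene was chosen as high in miR-187-2 alone, so its lower values in the other libraries were part of the choice. The fit also has 1 miR-187 library and infinite prior degrees of freedom, so the replicate spread of a gene did not enter. As a description only, 0 of the 4 members passed in it, against 0.164% of 14612 genes. Among the 14325 genes tested with all libraries, 30 (0.209%), *Tpsb2* included, had a difference at least as high as that of *Tpsb2*. For *Cpa3* this share was 11.0%, for *Cma1* 12.2% and for *Mcpt4* 30.0%.

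Without miR-187-1, the differences rose to 3.68 for *Cpa3*, 3.74 for *Cma1* and 4.10 for *Mcpt4*. All 3 members passed the threshold, as did 94 of 14175 genes (0.663%) in that fit. They also passed without WT-1 (differences of 2.59, 2.85 and 3.48), where 96 of 13813 genes (0.695%) did. Without WT-2, 35 of 14762 genes (0.237%) passed and these 3 members did not (differences of 1.56, 1.34 and 0.86). In these fits the lone library is assumed to vary like the others. For each of them limma estimated infinite prior degrees of freedom, so that the replicate spread of a gene itself did not enter its test. Each fit also holds miR-187-2, the library that led to the choice of the members. Without miR-187-1, that library is the whole miR-187 group. The counts of members passing therefore rest on it and do not test an effect of miR-187.

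**Figure D4:**
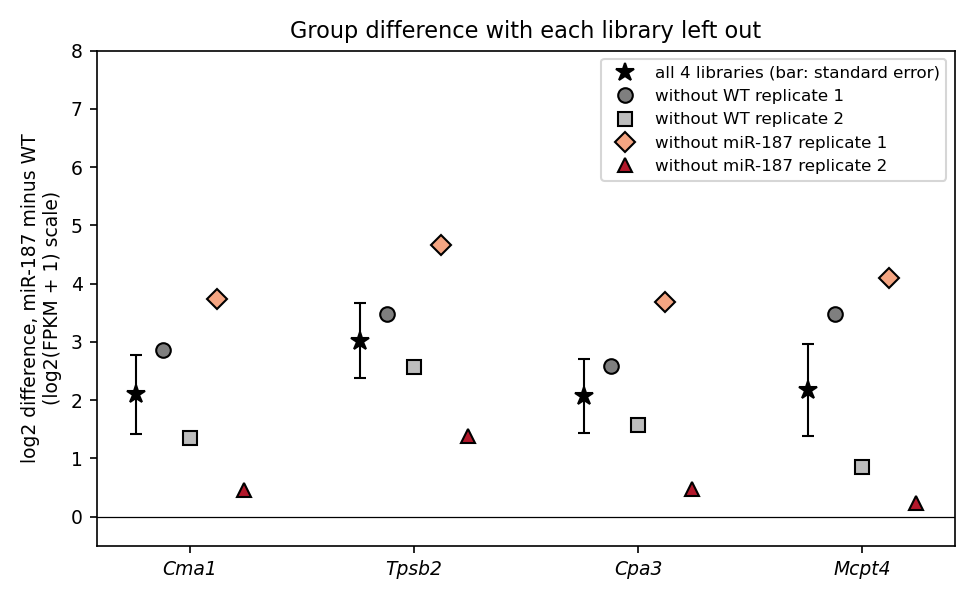
Log2 difference (miR-187 minus WT, log2(FPKM + 1) scale) of the 4 proteases with all libraries (stars, bars show the limma standard error) and with each library left out. The difference is smallest without miR-187-2, at 0.23 to 1.38, and largest without miR-187-1, at 3.68 to 4.66.

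Finally, the members were set among the 38 genes that miR-187-2 held at 5 times or more the level of any other library. All 4 members were among these, which make up 0.265% of tested genes; since *Tpsb2* was chosen for this pattern, the count is a description. By FPKM in that library, *Cma1* stood at place 6 of the 38, *Tpsb2* at place 7, *Cpa3* at place 9 and *Mcpt4* at place 13. The highest value of a member outside miR-187-2 was between 6.88 FPKM (*Mcpt4*) and 36.3 FPKM (*Cma1*). Whether other cells or tissue in that library had a part in the members' level was not tested.

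**Figure D5:**
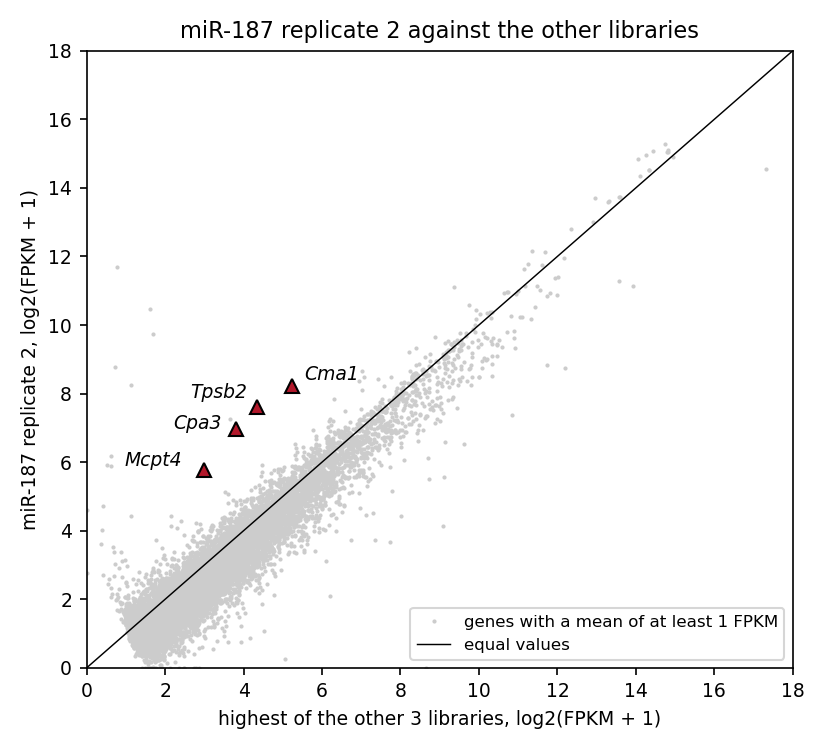
Level in miR-187-2 (vertical axis) against the highest level in the other 3 libraries (horizontal axis), both as log2(FPKM + 1), for the 14325 tested genes (grey points). The 4 proteases (red triangles) lie above the line of equal values, with a highest level in the other libraries of 6.88 FPKM for *Mcpt4* to 36.3 FPKM for *Cma1*.

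Genes with the pattern most like each member were found by the root mean square distance between log2(FPKM + 1) values centred on their mean over the 4 libraries. The nearest gene to *Tpsb2* was *Cpa3* (distance 0.48, with a median of 2.01 over all genes). *Cpa3* and *Cma1* were nearest to each other, at 0.18, and the 3 nearest genes to *Mcpt4* were the other members, led by *Cma1* at 0.44. With 4 points of which 1 is far from the rest, such likeness mostly restates the height of miR-187-2. Outside the members, the nearest genes by this measure included ENSMUSG00000091523, with 0.286, 0.0691 and 0.128 FPKM in WT-1, WT-2 and miR-187-1, 11.3 FPKM in miR-187-2 and a distance of 0.35 from *Cpa3*. Another was ENSMUSG00000091228, listed at 0 in the other 3 libraries and at 23.3 FPKM in miR-187-2, at 0.67 from *Tpsb2*.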

How the data were processed

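The authors deposited 1 table of FPKM values for 55487 Ensembl gene IDs, with 1 column for each of the 4 libraries. Per the labels, total RNA was extracted with TRIzol and mRNA libraries were sequenced in paired-end mode on a NovaSeq instrument. The submitters' processing notes name HISAT2, StringTie, DESeq2 and mm10, without roles or versions. The annotation and the use of strand are not given in the sources used here. FPKM is relative to the mapped total of a library, so abundant transcripts lower all other values. With no counts, no interval for counting error could be given, and precision rests on 2 libraries per group.

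Values were transformed as log2(FPKM + 1), which understates the change of low genes. The groups were compared over all genes averaging 1 FPKM or more by moderated linear models in limma 3.58.1 (R 4.3.3). The models used a mean-variance trend in eBayes, two-sided p-values and a Benjamini-Hochberg threshold of 0.05. The procedure had first been run on simulated data with normal noise and known changes. Those data held no outlying library, and fits with a library left out were not simulated. Ratios, ranks and distances were computed in Python 3.11.15. Places are from the RefSeq table of GRCm38.p6, in which 4 of 4 members matched by symbol.

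The members and lists were chosen with earlier results of these data known. The table pairs no names with IDs and the RefSeq table holds 0 Ensembl IDs, so 20 lists of other genes with 174 symbols, among them mast cell receptors, mediators and transcription factors and markers of other tissues, were not analysed here. The genes named are the 4 members and, by the rule set for likeness, the 3 nearest to each, of which at most 2 outside the members are given by ID. Alternatives were another pseudocount, other filters, median centring, quantile normalization, no trend, leaving out each library and a replicate block.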

Additional observations from a re-analysis of the deposited data

How the results depend on the processing

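With every alternative that kept all 4 libraries, the log2 differences of *Cpa3*, *Cma1* and *Mcpt4* stayed positive, from 2.01 to 2.17, from 2.06 to 2.14 and from 2.04 to 2.92. They stayed short of the threshold with a pseudocount of 0.1, no filter, a minimum mean of 5 FPKM, median centring, quantile normalization and eBayes without a trend. They passed with a minimum mean of 0.1 FPKM (differences as reported, 2.08, 2.10 and 2.17, limma adjusted p of 0.000755, 0.00143 and 3.86e-05) and with the replicate block (the same differences, 0.00487, 0.00635 and 0.000322). In both of these fits, prior degrees of freedom were infinite, so the replicate spread of each gene did not enter. Across genes, the deviations of WT-1 and miR-187-1 from their group means had r = -0.0675, and no label ties a replicate number to a litter or batch, so libraries were not treated as paired. Leaving out each library moved the differences from 0.47 to 3.68 for *Cpa3*, from 0.45 to 3.74 for *Cma1*, from 0.23 to 4.10 for *Mcpt4* and, without a test, from 1.38 to 4.66 for *Tpsb2*; the lowest was always without miR-187-2. The number of genes called, 1 as reported, was 46 with a minimum mean of 0.1 FPKM (31 higher and 15 lower), 51 with the replicate block (33 higher and 18 lower), 0 without a filter, 0 with a minimum mean of 5 FPKM and 0 with quantile normalization (1122, 153 and 458 genes with an unadjusted p under 0.05), and from 24 to 96 with 1 library left out; the cause was not tested. The order of *Cma1* first and *Mcpt4* last held in 4 libraries with quantile normalization too, and 0.1 FPKM added to both genes moved each *Tpsb2* to *Cpa3* ratio by less than the replicate SD. In alternatives chosen after seeing the data, leaving out each library moved the log2 difference of the *Tpsb2* to *Cpa3* ratio from 0.97 to 1.06, that of *Tpsb2* to *Cma1* from 0.78 to 1.31, and the number of genes with a log2 difference of 2 or more, 16 as reported, from 3 without miR-187-2 to 43 without miR-187-1, with 25 without WT-1 and 15 without WT-2. Depth is unknown, so what it limits cannot be stated.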

Other observations

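With miR-187-2 set aside, the likeness among the proteases can be described over the other 3 libraries, as a pattern examined only after the values were seen. By root mean square distance of centred log2(FPKM + 1) values, *Cpa3* and *Cma1* were the closest pair, at 0.20. *Tpsb2* was 0.43 from *Cpa3* and 0.50 from *Cma1*, and *Mcpt4* was 0.46 from *Cma1*, 0.66 from *Cpa3* and 0.88 from *Tpsb2*. Many other genes lay closer to a member than these, since *Cpa3* was at place 79 of 14324 genes from *Cma1*, 389 from *Tpsb2* and 272 from *Mcpt4*, and *Cma1* at place 593 from *Cpa3*, 897 from *Tpsb2* and 34 from *Mcpt4*. *Mcpt4* was at place 1978 from *Cma1*, 10696 from *Tpsb2* and 11046 from *Cpa3*, and *Tpsb2* at place 2129 from *Mcpt4*, 2665 from *Cma1* and 5063 from *Cpa3*. Over these 3 libraries the tryptase was highest in miR-187-1 (19.2 FPKM), whereas *Cma1* (36.3 FPKM), *Cpa3* (12.9 FPKM) and *Mcpt4* (6.88 FPKM) were highest in WT-1. With 3 libraries such distances and places are a description and no test was made.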
